A study of Mus with 8 samples.

Results

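Monocytes carrying the Jak2 V617F mutation were compared between elastic and viscous hydrogel, with 2 libraries in each gel. These 4 libraries, of 8 in the series, were chosen by their titles, which mark the elastic gel as NbTz and the viscous gel as VLVG. The other 4 libraries hold control monocytes in the same gels, again 2 in each. All cells came from mouse bone marrow on a C57BL/6 background, and all groups carried Vav-iCre, a Cre recombinase under the Vav promoter, which is active in blood-forming cells. The control genotype was Vav-iCre alone, and the mutant genotype was Jak2 V617F Vav-iCre. Cells were harvested on day 3 of culture with GM-CSF at 100 ng/mL, IL4 at 200 ng/mL and PGE2 at 100 ng/mL, so every group had the same cytokines. Neither the age of the mice nor any pooling of animals is stated in the labels.

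JAK2 is the tyrosine kinase that passes signals from cytokine receptors such as that for GM-CSF to the STAT transcription factors. The V617F change makes the kinase active without its ligand and drives myeloproliferative neoplasms, diseases in which the marrow often becomes fibrotic. Monocytes in such marrow meet a stiff matrix that can be more elastic or more viscous, and GM-CSF with IL-4 steers them towards dendritic cells and related phagocytes. The comparison asks which transcripts differ in mutant monocytes when the stiff matrix is elastic and not viscous. Effects of elasticity and of other properties in which the gels differ cannot be told apart.

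Each title ends in a number that 1 elastic and 1 viscous library share; the lower and the higher of these are called J1 and J2 in Jak2 V617F cells and W1 and W2 in control cells. What the number stands for is not in the labels, and nothing there says that libraries came from separate animals or cultures, so the p-values speak of the variation among these libraries, part of which could be technical. The Jak2 V617F libraries held 31713975 to 38408851 counts, and 16760 to 16827 gene IDs had at least 1 count in them. The 10 most abundant IDs took 8.17% to 10.0% of the counts of these libraries, without separation of the gels. Among control libraries, both W1 libraries stood apart from both W2 libraries, at a root mean square difference of 0.63 to 0.71 log2 CPM over IDs with at least 5 CPM, against 0.27 to 0.46 between any pair of Jak2 V617F libraries; fits without W1 or W2 stand with the alternatives. The files name genes by Ensembl ID alone, and the gene table used as a reference carried an Ensembl ID for 0 of its 49997 genes. Genes are therefore described as groups of IDs and by 4 IDs in full, and neither the level of Jak2 nor markers of monocytes or other cells were analysed here. Which cells the transcripts of an ID came from was not tested.

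The ID with the largest difference shared by both title numbers, among those with a mean of at least 5 CPM in Jak2 V617F cells, was nearly absent in viscous gel and present in elastic gel. ENSMUSG00000076609 had 1 count in each viscous library (0.0253 CPM in J1 and 0.0281 CPM in J2). In elastic gel it had 480 counts (14.0 CPM) in J1 and 682 counts (21.5 CPM) in J2. CPM give an ID's counts per 1e+06 of the library total after TMM scaling. In such bulk samples, fewer cells of a type and less RNA per cell cannot be told apart. Both elastic libraries stood far above both viscous ones, and the replicates within a gel lay close together. The summed counts, 1162 against 2, give an elastic to viscous ratio of 661.4, with a 95% exact binomial interval of 182.7 to 5468 that covers counting error only. Its fitted log2 fold change was 9.20 (SE 1.85), and it did not pass edgeR's test over all 8 libraries (adjusted p = 1). In edgeR's fit of the 4 Jak2 V617F libraries alone the log2 fold change was 9.20 (SE 0.447), and the ID passed (adjusted p = 0.031).

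The same ID varied widely among control libraries, which share the spread of the 8-library fit. In control cells ENSMUSG00000076609 stood at 0.163 CPM (W1) and 3.24 CPM (W2) in viscous gel. In elastic gel it stood at 137.4 CPM (W1) and 30.2 CPM (W2). Both control numbers were thus higher in elastic gel too, by 9.28 and 3.20 on the log2 scale. The mutant minus control difference of the log2 fold changes was 3.55 (SE 2.60, 95% interval −2.67 to 9.77, edgeR adjusted p = 1).

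ENSMUSG00000076612 had a like pattern in Jak2 V617F cells with more spread. It had 2 counts (J1) and 0 counts (J2) in viscous gel, against 124 counts (3.61 CPM) and 613 counts (19.4 CPM) in elastic gel. The gels did not overlap, but the elastic libraries themselves differed by more than 2-fold. Summed, 737 against 2 counts give a ratio of 419.5 (95% exact binomial interval 115.7 to 3471, counting error only). The edgeR log2 fold change was 8.58 (SE 1.54, adjusted p = 1), and 0.206 was the adjusted p on the 4 Jak2 V617F libraries alone. Single libraries moved this value: it was 11.58 without viscous J1, 7.72 without viscous J2, 9.33 without elastic J1 and 6.93 without elastic J2.

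In control cells ENSMUSG00000076612 had few counts in both gels. It had 0 and 2 counts in viscous gel (W1 and W2) and 19 and 4 counts in elastic gel. Both control numbers were thus higher in elastic gel, by 3.52 (W1) and 0.60 (W2) on the log2 scale. The mutant minus control difference of the log2 fold changes was 5.09 (SE 3.04, 95% interval −2.19 to 12.4, edgeR adjusted p = 1), so the data do not show that the genotypes differ.

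Among IDs lower in elastic gel with a mean of at least 5 CPM in Jak2 V617F cells, ENSMUSG00000022504 had the largest difference that both title numbers shared. It stood at 21.0 CPM (J1) and 26.5 CPM (J2) in viscous gel and at 7.08 CPM (J1) and 8.56 CPM (J2) in elastic gel. The within-number differences were nearly equal, −1.56 and −1.62 on the log2 scale. Over the gels it was 3.04-fold lower in elastic gel (log2 fold change −1.60, SE 0.181, edgeR adjusted p = 0.93). In control cells ENSMUSG00000022504 was lower in elastic gel in both numbers as well, by −1.94 (W1) and −2.11 (W2) on the log2 scale.

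ENSMUSG00000073491 came second by the same measure and with the same 5 CPM minimum. It stood at 95.4 CPM (J1) and 100.6 CPM (J2) in viscous gel and at 24.2 CPM (J1) and 35.0 CPM (J2) in elastic gel. Viscous replicates were close, and both elastic libraries lay well below them. It was 3.31-fold lower in elastic gel (log2 fold change −1.73, SE 0.278, edgeR adjusted p = 0.93), with within-number differences of −1.97 and −1.52. In control cells it stood at 161 CPM (W1) and 96.6 CPM (W2) in viscous gel and at 50.9 CPM and 49.0 CPM in elastic gel. The mutant minus control difference of the log2 fold changes was −0.36 (SE 0.382, 95% interval −1.27 to 0.56, edgeR adjusted p = 1).

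**Figure D1:**
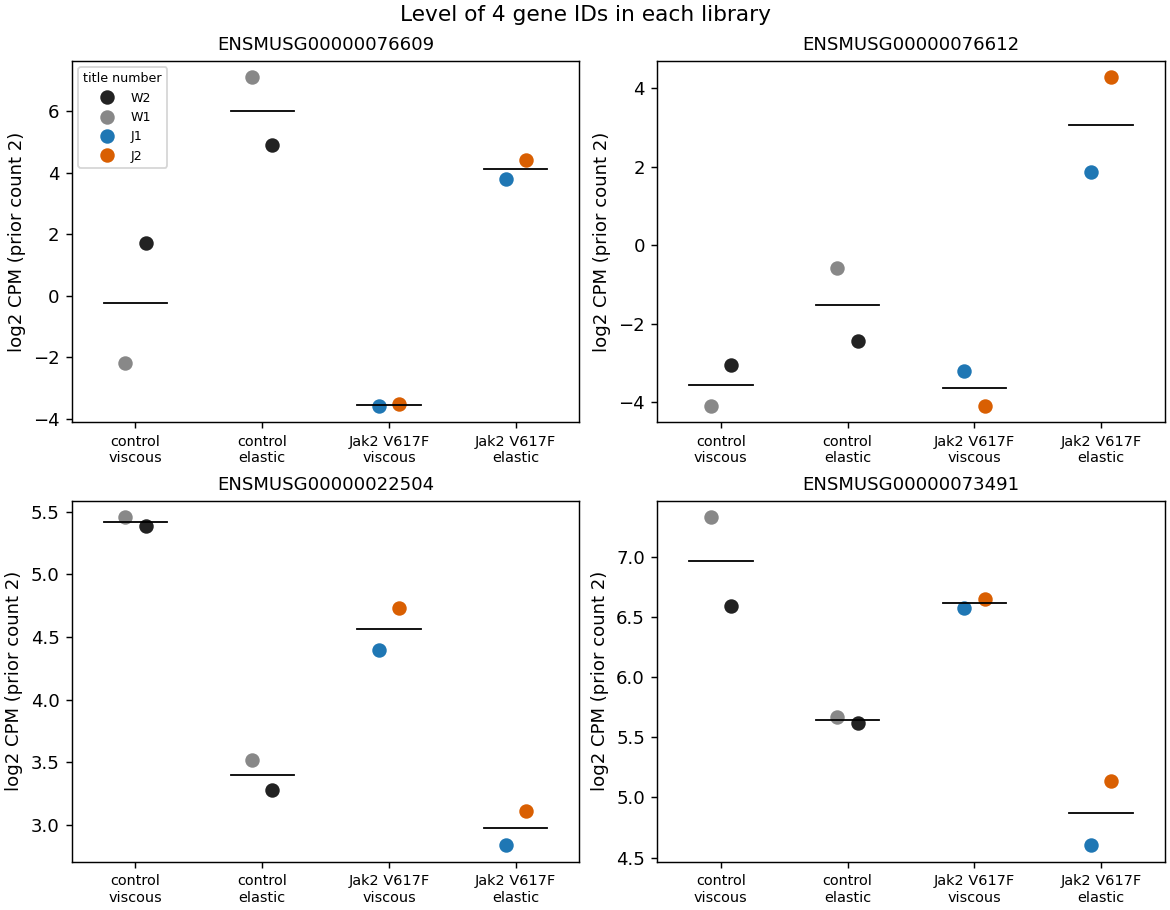
Level of 4 gene IDs in each of the 8 libraries, on a log2 CPM scale with a prior count of 2; each point is 1 library, coloured by title number, and each line is the mean of 2. ENSMUSG00000076609 and ENSMUSG00000076612 sit higher in both elastic than in both viscous Jak2 V617F libraries, and ENSMUSG00000022504 and ENSMUSG00000073491 sit lower.

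Over all IDs, edgeR's quasi-likelihood test called 0 of 14785 (0%) at a Benjamini-Hochberg adjusted p under 0.05. An unadjusted p under 0.05 was given to 455 IDs, 194 higher and 261 lower in elastic gel, against 739 by chance. By limma-voom the counts were 0 called and 457 under that unadjusted limit. DESeq2 called 35 IDs, or 0.237% of 14785, of which 20 were higher and 15 lower in elastic gel. All 35 had gels that did not overlap, 25 had a mean of at least 5 CPM, and 23 were at least 2-fold apart within both title numbers. Over all 14785 IDs, 40% did not overlap, 10041 had at least 5 CPM, and 1.75% were at least 2-fold apart in both numbers. The calls and these measures use the same Jak2 V617F libraries, so their sharing is no separate support. The 4 named IDs were all among DESeq2's calls, with adjusted p = 0.000114, 9.77e-06, 2.23e-08 and 4.49e-05 in the order given above.

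The spread that enters the test differed between fits. With all 8 libraries the median SE of a log2 fold change was 0.26, and with the 4 Jak2 V617F libraries alone it was 0.16. On those 4 libraries edgeR called 1 of 14111 IDs, ENSMUSG00000076609, and gave 1194 an unadjusted p under 0.05, against 706 by chance. DESeq2 on the same 4 libraries called 244 IDs, 130 higher and 114 lower, and these included 33 of its 35. Of the 244, 82 were at least 2-fold apart in both title numbers, beside 1.75% of the 14785 IDs kept with 8 libraries.

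Distances between libraries were of like size between and within gels, apart from a close elastic pair. Over the 10041 IDs that averaged 5 CPM or more in Jak2 V617F cells, the elastic libraries differed by a root mean square of 0.27 log2 CPM, and 31 IDs were 2-fold or more apart between them. The viscous libraries differed by 0.42, with 278 IDs at least 2-fold apart. Between gels, the viscous library J1 lay 0.37 from the elastic library J1 and 0.35 from the elastic library J2. The viscous library J2 lay 0.46 from the elastic library J2 and 0.44 from the elastic library J1. The viscous library J2 was thus the farthest of the 4 from each of the others, and the viscous pair was farther apart than viscous J1 was from either elastic library.

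Sharing of direction between the title numbers was weak over all IDs and stronger among large differences. The within-number differences had the same sign for 51.97% of 14785 IDs, with r = 0.10 and rho = 0.084 across IDs. Among the 10041 IDs with at least 5 CPM the shares were alike (51.95% of the same sign, r = 0.20, rho = 0.090). IDs are not independent replicates, and all 4 libraries share 1 scaling. Elastic and viscous libraries did not overlap for 2865 IDs higher (19.4%) and 3050 IDs lower (20.6%) in elastic gel. With only 2 libraries in each gel, such separation is also frequent without any effect, so these are not counts of IDs that respond to the gel.

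IDs with a large difference in both numbers were few. At least 2-fold in both title numbers, in the same direction and without overlap between gels, 137 IDs (0.927% of 14785) were higher and 121 IDs (0.818%) lower in elastic gel. A further 180 IDs were at least 2-fold apart in both numbers in opposite directions. Low levels held most of these: of 2646 IDs under 1 CPM, 75 were higher, 79 lower and 128 opposite.

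**Figure D2:**
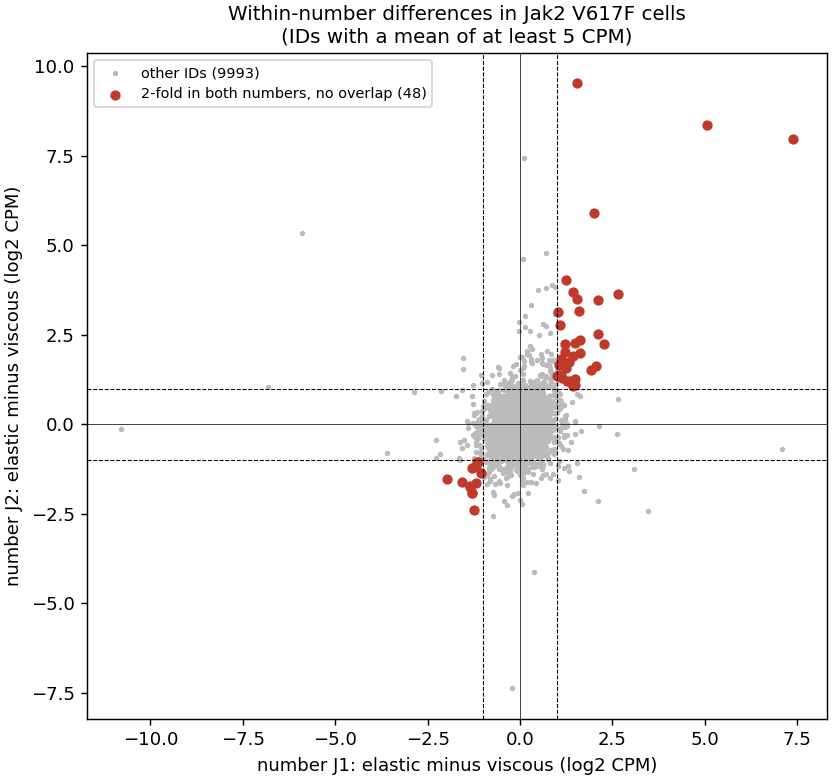
Elastic minus viscous difference in log2 CPM within title number J1 (horizontal) and J2 (vertical) for the 10041 IDs averaging 5 CPM or more in Jak2 V617F cells; dashed lines mark 2-fold and red points are the 48 IDs past it in both numbers without overlap. The red points number 35 at the upper right and 13 at the lower left, and differences above 3 in both numbers occur at the upper right.

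At higher levels the shared differences of at least 2-fold leaned towards elastic gel. Among the 10041 IDs with at least 5 CPM, 35 were at least 2-fold higher in both numbers, 13 were lower and 19 were opposite. The 6 such IDs at 100 CPM or more were all higher in elastic gel, and 0 were lower or opposite, among 2159 IDs at that level. Their means over the 4 Jak2 V617F libraries ran from 151.3 to 3076 CPM, and their mean within-number differences from 1.35 to 2.38 on the log2 scale. For 3 of these 6 the viscous libraries were themselves 2-fold or more apart. An unadjusted edgeR p under 0.05 was given to 2 of the 6, and DESeq2 called 1. Among all 10041 IDs with at least 5 CPM these counts were 295 and 25. The 6 were picked for large differences in the same libraries, so their calls are no separate support. Between 5 and 20 CPM, 21 were higher, 7 lower and 11 opposite of 3046 IDs. Between 20 and 100 CPM, 8 were higher, 6 lower and 8 opposite of 4836 IDs. Without the 2-fold limit, gels did not overlap for 2002 IDs higher and 2087 lower of the 10041. At 100 CPM or more these were 532 and 390 of the 2159. Taken by number alone, differences of at least 2-fold did not lean this way in J2. Among the 10041 IDs, 156 were higher and 156 lower in J2, and 88 and 76 in J1. At 100 CPM or more, 23 were higher and 25 lower in J2, and 19 and 1 in J1. In control cells, 20 of the 10041 were at least 2-fold higher in both numbers and 19 lower, without overlap.

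**Figure D3:**
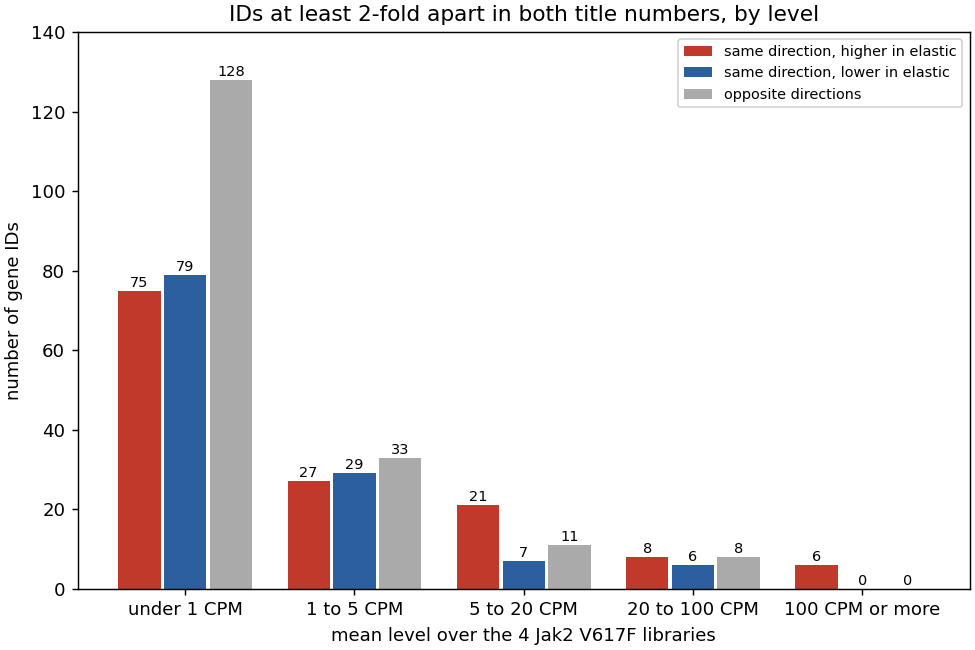
Number of gene IDs at least 2-fold apart within both title numbers in Jak2 V617F cells (vertical axis), by mean level over the 4 libraries (horizontal axis), split into the same direction without overlap (red, higher in elastic gel; blue, lower) and opposite directions (grey). Higher, lower and opposite IDs number 75, 79 and 128 under 1 CPM, and 6, 0 and 0 at 100 CPM or more.

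The 35 higher IDs had a median level of 2.84 (J1) and 2.22 (J2) log2 CPM in the viscous libraries and of 4.50 (J1) and 4.66 (J2) in the elastic ones. Their mean within-number differences ran from 1.18 to 7.67 with a median of 1.81. For 10 of these 35 the viscous libraries were themselves 2-fold or more apart, and for 1 the elastic libraries were. The 13 lower IDs had median levels of 4.40 (J1) and 4.73 (J2) log2 CPM in viscous gel and of 2.92 and 3.11 in elastic gel. Their differences lay closer together, from −1.82 to −1.10 with a median of −1.54, and the viscous libraries were 2-fold apart for 1 of them. Just inside and just outside the 2-fold limit, the smaller within-number difference of an ID with at least 5 CPM was 1.007 and 0.998, so the limit divides a continuous range.

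These IDs were chosen in Jak2 V617F libraries alone, so the control libraries give values that the choice did not use. Of the 13 lower IDs, 12 (92.3%) were lower in elastic gel in both control numbers, against 26.7% of all 10041 IDs with at least 5 CPM. Their median control difference was −1.11 in number W1 and −0.99 in W2. Of the 35 higher IDs, 24 (68.6%) were higher in both control numbers, against 31.6% of the 10041. Taken by number, 33 of 35 were higher in W2, with a median difference of 1.76, and 25 of 35 in W1, with a median of 0.86. In control cells without regard to this choice, gels did not overlap for 1938 IDs higher (13.1%) and 2033 IDs lower (13.8%) of 14785. Of the 10041, these were 1407 IDs higher and 1144 IDs lower. Among the 35 and the 13, control gels did not overlap in the same direction for 17 and 7 IDs.

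**Figure D4:**
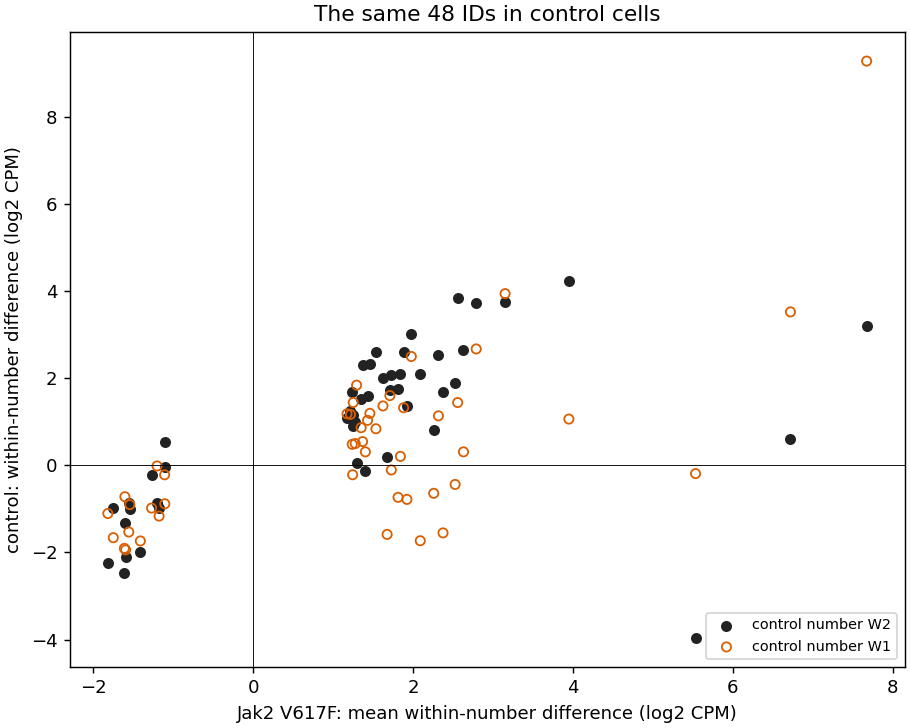
Elastic minus viscous difference in control cells (vertical axis, log2 CPM; filled points number W2, open points number W1) against the mean within-number difference in Jak2 V617F cells (horizontal axis, log2 CPM) for the 48 IDs at least 2-fold apart in both mutant numbers with at least 5 CPM. Of the 13 IDs lower in Jak2 V617F cells 12 are lower in both control numbers, and of the 35 higher IDs 33 are higher in W2 and 25 in W1.

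Whether the elastic effect differed between genotypes was tested over all IDs. edgeR called 0 of 14785 for the difference, with 254 at an unadjusted p under 0.05, and limma-voom gave 0 and 259. DESeq2 called 2 (in each the mutant's log2 fold change was the lower one), and 0 of these 2 were among the 48. Of the 48 IDs, 2 had an unadjusted edgeR p under 0.05 for the difference, 1 of the 35 and 1 of the 13. Apart from DESeq2's 2, none of these fits shows an ID whose elastic effect differs between the genotypes. Of those 2, 0 were among the 10041 IDs with at least 5 CPM in Jak2 V617F cells. Among the 121 IDs at least 2-fold lower in both mutant numbers was 1 of them.

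A few IDs had counts in 1 gel alone. In Jak2 V617F cells, 9 IDs had at least 10 counts in both elastic libraries and 0 in both viscous ones, and 6 IDs had the reverse. The 9 had 13 to 404 counts in an elastic library. Set against a floor of 3 counts over both viscous libraries, they were at least 10.2-fold to at least 225.8-fold higher in elastic gel. The 6 had 12 to 335 counts in a viscous library and were at least 10.2-fold to at least 178.6-fold lower in elastic gel. Of the 9, 6 also had 0 counts in both control viscous libraries, and 2 had counts in all 4 control libraries. Of the 6, 1 had 0 counts in both control elastic libraries and 1 had counts in all 4. By the same rule, control cells had 22 IDs in elastic gel alone and 7 in viscous gel alone, and 0 of these IDs were shared with the mutant cells.

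Cell cycle genes gave median differences near 0 in Jak2 V617F cells. These IDs come from training pairs shipped with the scran package, which list genes by the phase in which they are relatively high. Cycling supplies new monocytes from marrow progenitors and is usually low in differentiated cells. Of 55 measured IDs of the G2 and M phases, 12 were higher and 16 lower in elastic gel in both title numbers, with a median mean difference of −0.051, beside −0.0069 over all 14785 IDs. Their summed level was 2316 (J1) and 2584 (J2) CPM in viscous gel and 2821 and 2705 CPM in elastic gel, so the sums did not overlap between gels, although more of the single IDs were lower than higher in both numbers. Of 70 measured S phase IDs, 22 were higher and 15 lower in both numbers, with a median of 0.0040. Of 59 measured G1 IDs, 27 were higher and 10 lower, with a median of 0.052. The sums of these lists did not overlap between gels either, in opposite directions. S phase IDs summed to 3113 (J1) and 3108 (J2) CPM in viscous gel and 3082 and 3004 CPM in elastic gel. G1 IDs summed to 6857 (J1) and 7222 (J2) CPM in viscous gel and 7406 and 7495 CPM in elastic gel. Over all IDs, 25.39% were higher and 26.58% lower in both numbers. No cell cycle ID was called by edgeR or by DESeq2, none was 2-fold apart in both numbers, and 1 G2 and M, 0 S and 3 G1 IDs had an unadjusted edgeR p under 0.05.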

How the data were processed

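The authors deposited unnormalized counts, whole numbers for each Ensembl gene ID. Salmon, DESeq2 and the build GRCm38 are named in the submitters' processing notes without version or order; gene summing, rounding, strand and filters are not given in the sources used here, so counts of overlapping or near-identical genes are uncertain. All 8 per-library files held the values of the series table (17640 IDs), in which the smallest sum over 8 libraries was 10. None of the IDs was matched to a symbol (0 of 17640), so the gene and marker lists could not be applied.

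The analysis used edgeR 4.0.16 (R 4.3.3): filterByExpr by group (14785 IDs), TMM scaling, 4 group means fitted to all 8 libraries, quasi-likelihood tests, two-sided, Benjamini-Hochberg adjustment. SEs were derived from the test statistic. Log2 CPM used a prior count of 2. Alternatives used limma 3.58.1 and DESeq2 1.42.0. The tests were checked on simulated data. Figures were drawn with matplotlib 3.10.9.

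Named IDs were those called in an edgeR alternative, then those with at least 5 CPM, no overlap and the largest smaller within-number difference. The rule had required a symbol. That condition was dropped, and at most 2 IDs are printed in each direction. The set of 48 IDs uses the same 5 CPM. Cell cycle lists (scran 1.30.0) took IDs first in at least 10 training pairs of a phase and second in none, and were chosen after seeing the data. Members, lists and alternatives were chosen with earlier results of these data known.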

Additional observations from a re-analysis of the deposited data

How the results depend on the processing

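The 0 calls of edgeR in Jak2 V617F cells held in 17 of 23 alternatives, among them both other scalings, both other filters, limma-voom and each single library left out (0 to 0 calls, with 222 to 576 IDs at an unadjusted p under 0.05; such a fit gives the remaining library the spread of the other groups). The count was 1 on only the 4 Jak2 V617F libraries, 1 without both libraries of control number W2 and 1 without both of W1; DESeq2 gave 35, and 244 on the 4 libraries. For the genotype difference 19 of 20 alternatives gave 0 (0 to 0 with 1 library left out), and DESeq2 gave 2.

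The 258 IDs at least 2-fold apart in both numbers became 405 without a filter, 115 with at least 50 counts in 2 libraries, 720 at 1.5-fold and 92 at 3-fold. With 1 Jak2 V617F library left out, an alternative added after seeing the data, the other library of that gel was set against both of the opposite gel, a looser rule by construction, and the count was 456 to 780. The 48 IDs with at least 5 CPM became 184 at 1.5-fold (102 higher, 82 lower) and 11 at 3-fold (11 higher, 0 lower), and 61 to 219 with 1 library left out. The 219, 124 of them higher, came without the viscous library J1, which leaves viscous J2 as the single viscous library; without viscous J2 the count was 83, of which 53 were higher. Both other scalings kept the split within 36 higher and 13 lower.

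With the title number as a fixed replicate block, edgeR called 0 over 8 libraries and 1 on the 4 Jak2 V617F libraries. With it as a random block (correlation 0.38) the limma-voom count over 8 libraries was 0. An unadjusted p under 0.05 over 8 libraries was given to 1036 IDs with the fixed and 890 with the random block, against 739 by chance. Same-numbered libraries deviated from their group means with a correlation across IDs of −0.089 in Jak2 V617F and 0.53 in control cells. Deviations were thus shared by number in control libraries and not in Jak2 V617F libraries. The main fit used no block, so the difference between W1 and W2 enters its spread. The 4 fits with 1 call all called ENSMUSG00000076609. Its adjusted p was 8.51e-15 to 1 over 21 settings, and none of the 84 values of the 4 named IDs reversed, which their choice without overlap nearly fixes.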
